A study of Saccharomyces cerevisiae with 8 samples.

Results

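The nucleosomes described here are those whose position was sharpest in wildtype budding yeast (Saccharomyces cerevisiae), followed through the loss of histone H3. They were chosen from the nucleosomes that the authors called in wildtype cells at 0 hours from sequenced MNase-protected fragments. A nucleosome of wildtype replicate B was taken when the read centers in its protected region had a standard deviation (SD) below 18 bp and at least 40 read centers lay within 50 bp of its dyad, and when replicate C held a call within 20 bp that met the same limits. The midpoint of each sequenced fragment is its read center, and the dyad is the middle of the nucleosome. The rule took 4211 of the 64594 nucleosomes called in replicate B (6.52%). They lay on all 16 chromosomes, 99 to 518 on each, and the median distance between the dyads of the replicates was 2 bp. The members were thus chosen by their spread and count in wildtype cells at 0 hours, so those values are given as a description only.

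A nucleosome is an octamer of histones with DNA wrapped around it, and MNase digests the linker DNA between nucleosomes. Where cells of a culture hold the octamer over the same bases, the read centers form a narrow peak, and where its place varies from cell to cell they form a wide peak. Promoters of yeast genes commonly hold a gap that is depleted of nucleosomes, and the first nucleosome of the gene, called +1, stands at the edge of the gap with further nucleosomes in an array after it.

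The study asked how chromatin changes when cells run out of histone H3. The H3 shutoff strain (DCB200.1) has no HHT1, and its remaining H3 gene, HHT2, is driven by the GAL1 promoter, which galactose turns on and dextrose turns off. The wildtype strain (YEF473A) has both H3 genes under their own promoters. Cultures of both strains were grown in galactose, moved to dextrose, fixed with formaldehyde and digested with MNase. Samples of H3 shutoff replicates 3 and 4 and of wildtype replicates B and C were taken after 3 hours in dextrose and at the start (0 hours), which gave 8 libraries, 2 in each group. H3 shutoff cells arrest in the G2/M phase after the shift, so the cell cycle and the H3 supply cannot be told apart at 3 hours, whereas the carbon source changed in both strains. Each library was made from a pool of cells, so the place and the spread of a peak describe the pool and not single cells.

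Every library held 5000001 fragments, so a count of read centers is a share of the library and a loss over the whole genome does not show. The median fragment length in the 8 libraries was between 148 and 164 bp. Fragments were longer at 3 hours in every culture. The median was 160 and 164 bp in H3 shutoff replicates 3 and 4 at 3 hours, against 158 and 154 bp at 0 hours, and 157 bp in both wildtype replicates at 3 hours, against 153 and 148 bp in B and C at 0 hours. The lengths moved with the time in both strains, and their part in the results was not tested beyond the fragments of 140 to 160 bp given below. Wildtype replicate B at 3 hours stood apart by read centers in gaps, and its values are given where they touch a result.

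Read centers around the members formed a tall and narrow peak with regular peaks on both sides before H3 was depleted, and a low and wide peak after it. With the average over the genome set to 1 and a smoothing SD of 10 bp, the density at the dyad was 2.58 and 2.90 in H3 shutoff replicates 3 and 4 at 3 hours, against 5.98 and 5.71 at 0 hours. In wildtype replicates B and C it was 6.85 and 6.41 at 3 hours, against 7.98 and 6.63 at 0 hours. The lowest density between the members and their neighbors was 0.776 and 0.764 at 3 hours in the H3 shutoff strain, against 0.225 and 0.197 at 0 hours. The linkers next to the members thus held more read centers at 3 hours than at 0 hours in both cultures. In the wildtype, the lowest density was 0.0857 and 0.0603 at 3 hours, against 0.0474 and 0.0496 at 0 hours. The peaks of the neighboring nucleosomes had a mean density of 1.34 and 1.36 at 3 hours in the H3 shutoff strain, against 3.01 and 2.93 at 0 hours. The peaks of the neighbors were thus lower at 3 hours together with those of the members in both H3 shutoff cultures, and many neighbors were members themselves, as given further on.

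**Figure D1:**
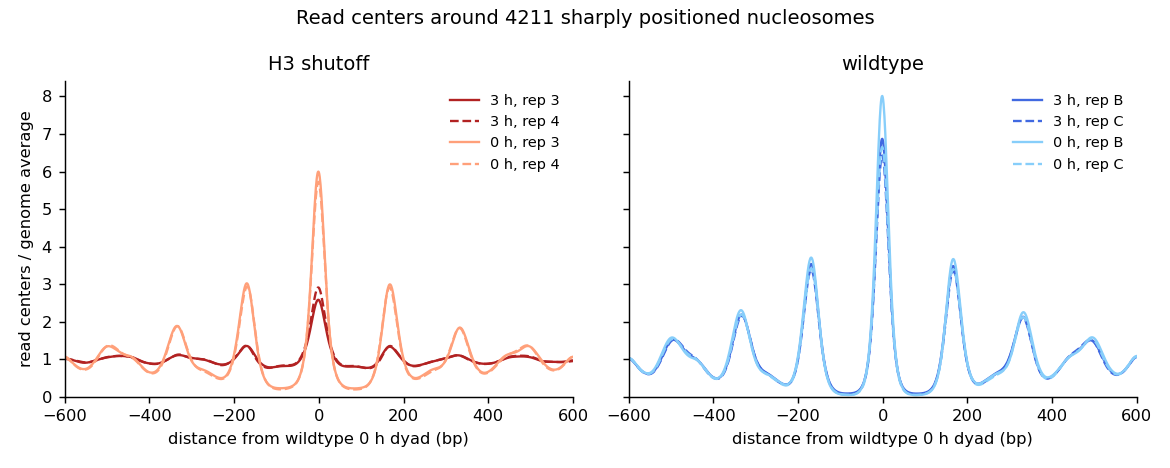
Average density of read centers around the 4211 sharply positioned nucleosomes, relative to the genome average (y axis), by the distance from the wildtype 0-hour dyad in bp (x axis), for the H3 shutoff strain on the left and the wildtype on the right. Solid and dashed lines are the 2 replicates. The peak at the dyad stands at 2.58 and 2.90 in the H3 shutoff strain at 3 hours, against 5.98 and 5.71 at 0 hours, and the wildtype peaks stand between 6.41 and 7.98.

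The spread of each member was measured as the SD of all read centers within 73 bp of its dyad. Read centers laid evenly over that window would have an SD of 42.4 bp. Over the members, the median SD was 31.5 and 30.0 bp in H3 shutoff replicates 3 and 4 at 3 hours, against 20.1 and 19.9 bp at 0 hours. In the wildtype it was 15.9 and 15.6 bp in replicates B and C at 3 hours, against 15.0 and 15.3 bp at 0 hours, when the members were chosen. The members of the H3 shutoff strain were thus already wider than those of the wildtype before the shift, by an amount that was not tested because wildtype cells at 0 hours set the rule. Within the H3 shutoff cultures, the median widening per member was 11.2 and 9.86 bp, and 3974 of the 4211 members (94.4%) were wider at 3 hours in both cultures. Over all nucleosomes measured, 60.1% were. Both 3-hour libraries were wider than both 0-hour libraries at 3871 members (91.9%) and at 54% of all nucleosomes. In the wildtype cultures the median change per member was 1.15 and 0.506 bp. That change starts from the 0-hour values used by the rule, so it is a description only.

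In limma on the log2 SD with culture as a block, 2860 of the 4162 members that had at least 20 read centers in every library were wider at 3 hours than at 0 hours in the H3 shutoff strain (68.7%, Benjamini-Hochberg adjusted p under 0.05). Of all 52501 nucleosomes tested, 25.9% were called wider. The median log2 change was 0.61 over the members and 0.20 over all nucleosomes. No member was called narrower (0, and 2 at an unadjusted p under 0.05), against 1.65% of all nucleosomes. The other 49 members fell under the minimum in some library, 43 of them in H3 shutoff replicate 4 at 3 hours. The calls rest on both H3 shutoff cultures. Without replicate 3 or without replicate 4, no member passed the adjusted p (0 in both, with the remaining culture assumed to vary like the wildtype), though 2300 and 2563 members were wider at an unadjusted p under 0.05. A narrower window of 50 bp, which takes in fewer read centers of neighbors, gave 1474 of 4044 members wider (36.4%), against 12.4% of all nucleosomes. Fragments of 140 to 160 bp alone gave 1123 of 2411 members (46.6%), against 16.8% of all nucleosomes.

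A set of ordinary nucleosomes was taken by the same rule with a spread of 24 to 30 bp in place of under 18 bp, which gave 4056 nucleosomes of the same minimum count. Their median SD was 37.2 and 35.9 bp in H3 shutoff replicates 3 and 4 at 3 hours, against 30.9 bp in both at 0 hours. Of those tested, 958 of 4033 (23.8%) were called wider. The members thus changed by more bp and were called more often than the ordinary nucleosomes, and they stayed narrower than them at 3 hours. Ordinary nucleosomes start nearer to the SD of an even spread and have less room to widen, and no test was made of the difference. They also held fewer read centers. Their median within 50 bp was 69 and 71 in H3 shutoff replicates 3 and 4 at 0 hours, against 100 and 97 at the members. What the depth adds to the shares called was not tested.

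**Figure D2:**
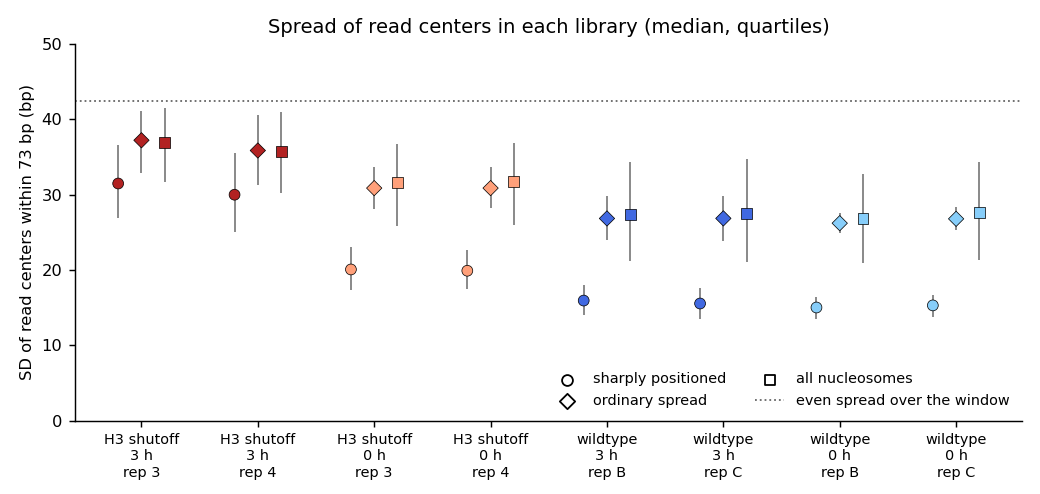
SD of the read centers within 73 bp of the dyad in bp (y axis) in each of the 8 libraries (x axis), for sharply positioned nucleosomes (circles), nucleosomes of ordinary spread (diamonds) and all nucleosomes of wildtype replicate B at 0 hours (squares). Symbols are medians over nucleosomes, bars are quartiles, and the dotted line at 42.4 bp is the SD of an even spread. The members stand at 31.5 and 30.0 bp in the H3 shutoff strain at 3 hours, against 20.1 and 19.9 bp at 0 hours.

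Set against the wildtype at the same time, nearly every member was wider in the H3 shutoff strain. This difference includes what was already present at 0 hours, when the H3 shutoff members had 20.1 and 19.9 bp. Both H3 shutoff libraries at 3 hours had a larger SD than both wildtype libraries at 3 hours at 4103 of the 4211 members (97.4%), and at 65.7% of all nucleosomes. The reverse order was seen at 2 members. In limma, 3871 of 4162 members were wider in the H3 shutoff strain than in the wildtype at 3 hours (93.0%, adjusted p under 0.05), against 53.9% of all nucleosomes, and the median log2 difference was 0.97 over the members and 0.39 over all nucleosomes. No member was narrower (0 at the adjusted p and 0 at an unadjusted p under 0.05), against 3.52% of all nucleosomes. The members were chosen in the wildtype, and their sharpness there was part of the choice even though no value of 0 hours enters the difference itself. The wildtype libraries of 0 hours do enter the error estimate of the test, which all 8 libraries share. What the rule adds to the calls through that estimate was not tested.

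In absolute terms, few members remained sharp. The SD was under 18 bp in both H3 shutoff cultures at 54 members at 3 hours (1.28%), against 801 at 0 hours (19.0%). In the wildtype at 3 hours it was under 18 bp in both cultures at 2742 members (65.1%). An SD over 30 bp in both cultures was found at 1901 members in the H3 shutoff strain at 3 hours (45.1%), against 15 at 0 hours. The authors' own calls, made in each library apart, gave a like picture. A call within 20 bp of the dyad was present at 2626 and 2544 members in H3 shutoff replicates 3 and 4 at 3 hours, against 4168 and 4202 at 0 hours. In wildtype replicates B and C at 3 hours it was present at 4175 and 4171. The call met the limits of spread and count at 49 and 73 members at 3 hours in the H3 shutoff strain, against 947 and 1053 at 0 hours. At 3 hours in the wildtype, 2871 and 3134 members had such a call. When the whole rule was applied to the calls of each group in place of wildtype cells at 0 hours, it found 41 nucleosomes in the H3 shutoff strain at 3 hours, against 701 at 0 hours, and 4079 in the wildtype at 3 hours. Of the 41 nucleosomes, 24 were members.

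Fewer read centers lay at the members after depletion. The median number within 50 bp of the dyad was 61 in both H3 shutoff libraries at 3 hours, against 100 and 97 in replicates 3 and 4 at 0 hours, and the wildtype had 106 and 102 at 3 hours, against 115 and 104 at 0 hours. In edgeR's quasi-likelihood test with culture as a block and no scaling, the count was lower at 3 hours than at 0 hours at 2290 of 4211 members (54.4%) and higher at 29 (0.689%), at an adjusted p under 0.05. Of the 62894 nucleosomes tested, 24.1% were lower and 4.39% higher, and of the 4056 ordinary nucleosomes 29.3% were lower and 3.01% higher. In H3 shutoff replicate 3 at 0 hours, the median count was 52 over all nucleosomes and 69 over the ordinary ones, against 100 at the members. What the depth adds to these shares was not tested. The median log2 change was -0.68 over the members and -0.37 over all nucleosomes. Against the wildtype at 3 hours, 2498 members were lower in the H3 shutoff strain (59.3%) and 28 higher (0.665%), against 32% and 6.68% of all nucleosomes. Among the ordinary nucleosomes 35.65% were lower and 5.77% higher. Without H3 shutoff replicate 4, 1338 members (31.8%) were lower than in the wildtype, against 13.3% of all nucleosomes.

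The direction of the counts held under each scaling run and their number did not. With TMM factors, which set the median change over all nucleosomes near 0, 876 members were lower (20.8%) and 79 higher (1.88%) at 3 hours than at 0 hours, while over all nucleosomes 8.25% were lower and 10.6% higher. The split of all nucleosomes thus turned toward higher counts with TMM, and that of the members did not. DESeq2 called 41 members lower (0.974%) and 7 higher (0.166%), while over all nucleosomes 0.175% were lower and 0.785% higher, so its split also ran the other way over all nucleosomes. Without H3 shutoff replicate 3 the unscaled test called 937 members lower (22.3%), against 9.23% of all nucleosomes, and without replicate 4 it called 500 (11.9%), against 3.21%. A wide peak places read centers outside the window of 50 bp. Within 73 bp, a window added after the data were examined, the median count was 77 and 76 at 3 hours in the H3 shutoff strain, against 106 and 102 at 0 hours, and 1392 members were lower (33.1%), against 11.4% of all nucleosomes. The share of read centers within 10 bp of the dyad was 26.9% and 28.5% at 3 hours in the H3 shutoff strain, against 52.9% and 52.3% at 0 hours.

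By their medians, the sharpest members were also narrower after depletion than the least sharp members. In the sharpest 1053 members by wildtype spread (mean wildtype SD of 5.67 to 13.96 bp at 0 hours), the median SD was 29.0 and 27.5 bp in H3 shutoff replicates 3 and 4 at 3 hours, against 17.4 and 17.3 bp at 0 hours. In the 1053 least sharp members (16.26 to 17.97 bp) it was 33.1 and 31.6 bp, against 22.1 and 21.8 bp. The order of the members was similar in both cultures: across the 4211 members, the SD at 3 hours in replicate 3 and that in replicate 4 had a Pearson's r of 0.84, and members share depth and neighbors, so this is a description. At the limits of the rule, the 9 annotated members just inside the limits of spread, count and distance had an SD of 14.1 to 42.0 bp at 3 hours in the H3 shutoff strain, and the 8 annotated nucleosomes just outside had 20.5 to 48.5 bp.

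The members differed by what lay next to them. In wildtype replicate B at 0 hours, the nearer neighboring dyad lay at a median of 164 bp and the farther at 179 bp, and 32.2% of the members had no neighbor within 220 bp on at least 1 side, which is called a gap here. Among all nucleosomes, 31.1% had such a gap. The 1356 members beside a gap had a median SD of 27.65 and 26.02 bp in H3 shutoff replicates 3 and 4 at 3 hours, against 18.02 and 18.15 bp at 0 hours. The 2178 members with neighbors closer than 180 bp on both sides had 34.4 and 33.2 bp at 3 hours, against 21.6 and 21.1 bp at 0 hours. At 3 hours in the wildtype, members beside a gap had 15.5 and 14.8 bp, and members with close neighbors on both sides had 16.1 and 15.9 bp. Members inside an array, with such close neighbors, were thus wider than members at a gap in each H3 shutoff library, at both times. Over all nucleosomes the medians at 3 hours were 34.6 and 33.3 bp beside a gap, against 38.6 and 37.7 bp inside an array, so this order at 3 hours was not particular to the members. With the window of 50 bp the medians at 3 hours were 19.8 and 18.8 bp beside a gap, against 23.4 and 22.4 bp inside an array.

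The calls followed the same order. Of the members beside a gap, 812 of 1344 tested (60.4%) were called wider at 3 hours in the H3 shutoff strain, and of those inside an array 1622 of 2158 (75.2%), and 0 in either class without 1 of the H3 shutoff cultures. Over all nucleosomes 18.3% were called beside a gap and 33.2% inside an array. The median log2 change was 0.57 beside a gap and 0.65 inside an array, which is less far apart than the SD in bp. The count did not follow it, with a median log2 change of -0.67 beside a gap and -0.68 inside an array. The sharpest nucleosomes also stood next to each other: 2335 members (55.4%) had a member as a neighbor, and 324 runs of 3 to 7 neighboring members held 1139 of them. The 491 members with a member on both sides were the sharpest in the wildtype at 3 hours (15.0 and 14.5 bp), and at 3 hours in the H3 shutoff strain they had 32.9 and 31.4 bp, against 19.5 and 19.0 bp at 0 hours. The 1876 members with no member next to them had 30.8 and 29.2 bp at 3 hours in the H3 shutoff strain, against 20.2 bp in both replicates at 0 hours.

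**Figure D3:**
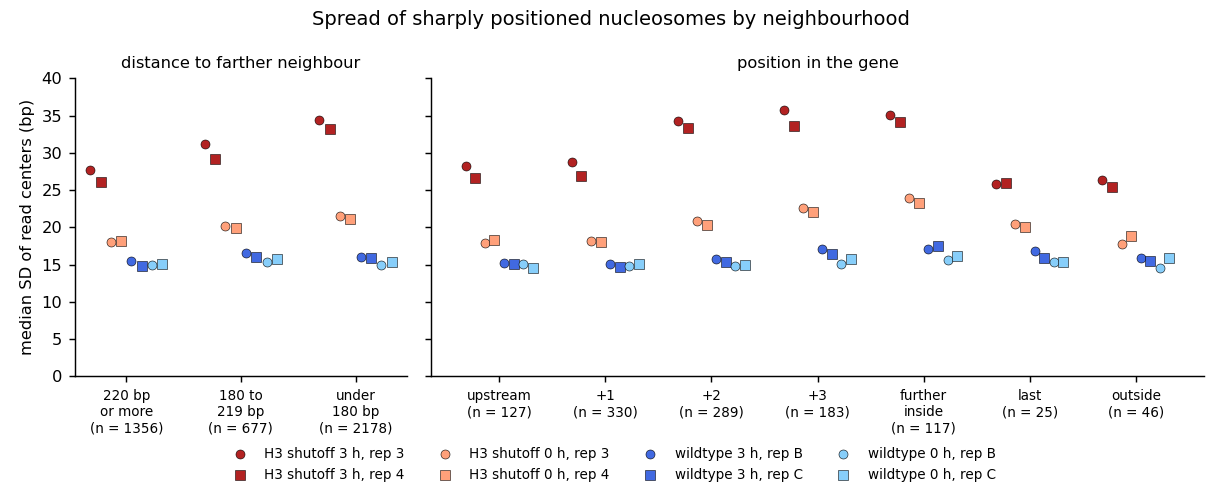
Median SD of the read centers of the sharply positioned nucleosomes in bp (y axis) in each of the 8 libraries (symbols), by the distance to the farther neighboring dyad on the left and by the position in the listed gene on the right. The numbers of members stand below each class. In the H3 shutoff strain at 3 hours the members beside a gap stand at 27.65 and 26.02 bp and the members with neighbors closer than 180 bp on both sides at 34.4 and 33.2 bp.

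Read centers moved away from gaps. The mean offset of the read centers within 73 bp changed between 0 and 3 hours in the H3 shutoff strain at 1395 of 4162 members (33.5%, limma, adjusted p under 0.05), against 25.7% of all nucleosomes. By genome direction 718 moved to the right and 677 to the left, and the median size of the shift among those called was 15.9 bp. A direction appeared once the members were turned by their gap. Of the 1157 members with a gap on 1 side and a neighbor closer than 180 bp on the other, 487 of 1148 tested were called (42.4%), of which 469 had moved away from the gap and 18 toward it (96.3% away). Among all nucleosomes with such neighbors 29.4% were called, 2522 away from the gap and 624 toward it (80.2% away), so the direction was shared with nucleosomes that were not sharp. The median shift away from the gap was 9.42 and 9.63 bp in replicates 3 and 4. Without replicate 3, 128 had moved away and 4 toward, and without replicate 4 no member was called in either direction. With the median in place of the mean offset, 298 had moved away and 10 toward.

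The offset within 73 bp takes in read centers from the side of the close neighbor, so the peak itself was examined. In the averaged profile turned by the gap, the highest density lay 5 bp from the wildtype dyad, away from the gap, in both H3 shutoff libraries at 3 hours, against 1 bp in both at 0 hours and 0 bp in all 4 wildtype libraries, whose 0-hour calls set the dyad. The mean offset was also taken within 30 bp of the dyad, farther from the neighbor, though the share of the neighbor there was not measured. This offset had a median over members of 3.92 and 4.40 bp away from the gap at 3 hours in the H3 shutoff strain. At 0 hours it was 0.733 and 1.06 bp. It pointed away from the gap at 81.4% and 82.9% of the members at 3 hours, against 61.9% and 65.2% at 0 hours. The peak of the close neighbor lay at 178 bp in both libraries at 3 hours, against 169 bp in both at 0 hours. The neighbor thus lay farther away as well, and the distance between the peaks was 173 bp at 3 hours, against 168 bp at 0 hours.

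The gap held a larger share of the read centers at 3 hours in the H3 shutoff strain. It is a share of libraries of equal size, so it does not show whether nucleosomes came to lie in the gap. The paper reports that chromatin was more sensitive to MNase after H3 depletion, and the part of this in the values was not tested. The mean density 60 to 140 bp from the dyad on the side of the gap was 0.377 and 0.286 at 3 hours in H3 shutoff replicates 3 and 4, against 0.100 and 0.0696 at 0 hours. In wildtype replicate B it was 0.157 at 3 hours, against 0.0614 at 0 hours, and in replicate C it was 0.0591, against 0.0466. The 3-hour library of wildtype replicate B thus also had more read centers in the gaps than the other 3 wildtype libraries, and less than either H3 shutoff library at 3 hours.

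**Figure D4:**
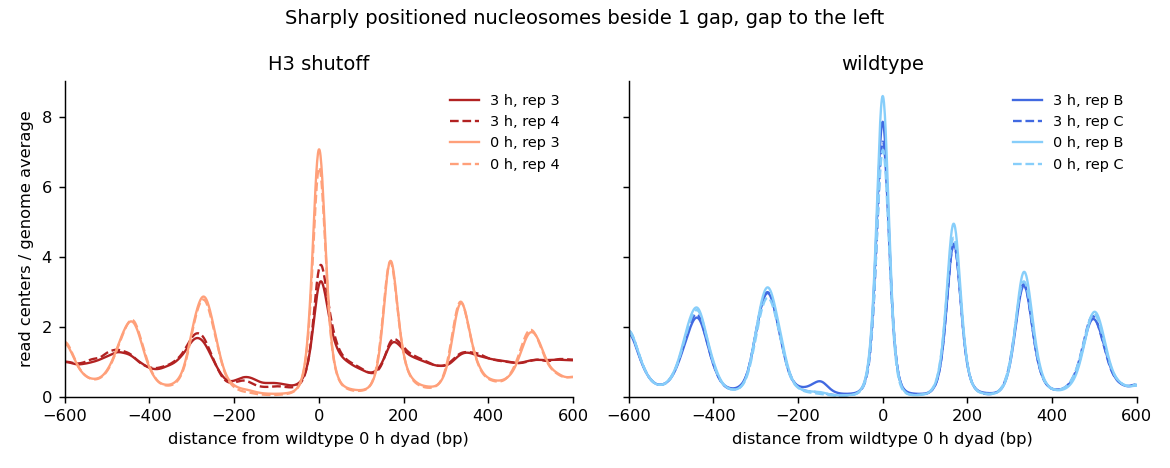
Average density of read centers relative to the genome average (y axis) around the 1157 sharply positioned nucleosomes with a gap on 1 side, turned so that the gap lies to the left, by the distance from the wildtype 0-hour dyad in bp (x axis). The H3 shutoff strain is on the left and the wildtype on the right, with 1 line for each library. In the H3 shutoff strain the peak stands at 5 bp at 3 hours, against 1 bp at 0 hours, and the gap holds more read centers at 3 hours.

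Gene positions were taken from the start and end of 1614 listed transcripts on chromosomes 1, 11, 12, 13 and 14, on which 1117 members lay among 16469 nucleosomes. Members were found mostly at the start of genes. The +1 nucleosome, with its dyad within 50 bp before to 150 bp after the listed start, made up 330 members (29.5%), against 10.1% of all nucleosomes in these stretches. The next nucleosomes of the gene, +2 and +3, made up 289 (25.9%) and 183 (16.4%), against 8.55% and 7.98%. Further inside genes lay 117 members (10.5%), against 48.8% of all nucleosomes. A further 127 members lay upstream of a listed start, 25 were the last nucleosome of a gene and 46 lay outside all of these, where genes without a listed transcript may be. At +1 and at +2, 19.8% and 20.5% of all nucleosomes were members, and further inside genes 1.46% were.

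The spread after depletion differed by the position in the gene. Members at +1 had a median SD of 28.8 and 26.9 bp in H3 shutoff replicates 3 and 4 at 3 hours, against 18.18 and 17.99 bp at 0 hours. At +2 it was 34.2 and 33.4 bp, against 20.8 and 20.3 bp, and at +3 it was 35.8 and 33.6 bp, against 22.6 and 22.1 bp. Members upstream of a start stood near those at +1, with 28.2 and 26.7 bp at 3 hours, against 17.9 and 18.3 bp at 0 hours. Members further inside genes stood near those at +3, with 35.1 and 34.1 bp at 3 hours, against 23.97 and 23.2 bp at 0 hours, and the 25 at the last nucleosome had 25.8 and 26.01 bp, against 20.5 and 20.1 bp. All nucleosomes had the same order from +1 to +3 at 3 hours, with 32.6 and 30.7 bp at +1, 37.2 and 36.1 bp at +2 and 38.5 and 37.4 bp at +3. At 3 hours in the wildtype, the medians of +1, +2 and +3 members lay between 14.6 and 17.1 bp. Called wider were 232 of 328 members at +1 (70.7%), 233 of 284 at +2 (82.0%) and 140 of 180 at +3 (77.8%), and among all nucleosomes of these classes 45.0%, 57.0% and 45.8%. Further inside genes 80 of 116 members (69.0%) were called wider, against 14.02% of all nucleosomes there, and at the last nucleosome 10 of 25 members, against 15.1% of all. The median log2 change in SD was 0.63 at +1, 0.73 at +2 and 0.61 at +3, so it did not follow the order of the SD at 3 hours. The median log2 change in count was -0.71 at +1, -0.73 at +2 and -0.64 at +3.

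By the mean offset within 73 bp, read centers of members at +1 moved into the gene. That offset takes in read centers from the side of the +2 nucleosome, and no profile of this class is given here. Of 328 members tested at +1, 113 had a called shift (34.5%), of which 105 had moved into the gene and 8 toward the promoter. With the median in place of the mean offset, 63 had moved into the gene and 5 toward the promoter. The mean offset changed by a median of 7.63 and 8.30 bp into the gene over all members at +1 in replicates 3 and 4. Among all +1 nucleosomes 531 of 1379 were called (38.5%), 452 into the gene and 79 toward the promoter, with a median of 6.73 and 8.54 bp. The move was thus one of +1 nucleosomes as a whole and was not particular to the members. At +2, 65 of 90 called members had moved into the gene, and at +3 it was 26 of 49. The direction shared at +1 was thus less marked at +2 and absent from the counts at +3. These counts rest on both cultures as well, with 37 into the gene and 1 toward the promoter without replicate 3, and 0 in both directions without replicate 4.

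Of the 1614 listed genes, 325 (20.1%) had a member at +1. None of the 35 cytoplasmic ribosomal protein genes had 1 (0 of 35), although 33 of them had a called +1 nucleosome. These genes make the ribosome of the cytosol and are among the most highly transcribed in growing yeast. Of 20 mitochondrial ribosomal protein genes, 7 had a member at +1. These were MRPL3, MRPL10, MRPL13, MRPL17, MRPL20 and MRPL33 of the large subunit and RSM22, which is linked to the small subunit. Of 4 proteasome genes none had 1 (0 of 4). The lists were read by gene symbol, hold few genes each and were not tested.

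The sharpest annotated members in the wildtype, taken by the mean of the authors' SD in replicates B and C, illustrate how unequal the response was. The nucleosome 221 bp upstream of the start of MEF1, which encodes a mitochondrial translation elongation factor, lay at chr12:274082-274224 in the sacCer1 build beside a gap of 275 bp between dyads. Its SD was 14.8 and 17.5 bp in H3 shutoff replicates 3 and 4 at 3 hours, against 6.81 and 12.1 bp at 0 hours, and the wildtype had 8.86 and 6.33 bp at 3 hours. It was the sharpest of all annotated members and widened (log2 change 0.83 ± 0.26 SE, limma adjusted p = 0.037), yet at 3 hours it was narrower than the median member was at 0 hours. Its call was lost with the window of 50 bp (limma adjusted p = 0.066) and in fragments of 140 to 160 bp (limma adjusted p = 0.47). The +1 nucleosome of PAM17 (chr11:565434-565590), a gene of the mitochondrial protein import motor, had 21.5 and 18.7 bp at 3 hours in the H3 shutoff strain, against 9.58 and 12.4 bp at 0 hours (log2 change 0.88 ± 0.22 SE, limma adjusted p = 0.016). With the window of 50 bp the PAM17 call was lost as well (limma adjusted p = 0.11). The +2 nucleosome of PSK1 (chr1:120004-120156), which encodes a PAS domain kinase, had 27.9 and 29.9 bp at 3 hours, against 15.4 and 13.3 bp at 0 hours (log2 change 1.01 ± 0.18 SE, limma adjusted p = 0.0055). The 2 members beside a gap were thus narrower at 3 hours than the PSK1 nucleosome inside the gene.

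The 3 others of the 6 sharpest were those of OST6, DGR2 and CLF1. Upstream of OST6, a gene of the oligosaccharyltransferase (chr13:233146-233292), the SD was 21.2 and 20.7 bp at 3 hours in the H3 shutoff strain, against 14.7 and 14.9 bp at 0 hours, which missed the threshold (adjusted p = 0.058 in limma). At +3 of DGR2 (chr11:214017-214163) the SD was 24.3 and 19.6 bp at 3 hours, against 21.2 and 21.4 bp at 0 hours, so the libraries of the times overlapped (adjusted p = 0.90 in limma). It was wider than in the wildtype at 3 hours, where it had 12.1 and 13.4 bp (log2 difference 0.78 ± 0.16 SE, adjusted p = 0.0013 in limma). At +2 of CLF1, a splicing factor gene (chr12:384271-384423), the SD was 26.7 and 25.1 bp at 3 hours, against 13.6 and 15.1 bp at 0 hours (adjusted p = 0.010 in limma), and wildtype libraries at 3 hours had 7.80 and 8.43 bp. The CLF1 call between the times was lost with the window of 50 bp (adjusted p = 0.14 in limma).

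The largest called widening among annotated members on the log2 scale was seen at the +1 nucleosome of MUD2 (chr11:295726-295880), which encodes a splicing factor that binds the branch point region of introns. Its SD was 32.0 and 30.4 bp in H3 shutoff replicates 3 and 4 at 3 hours, against 7.45 and 12.4 bp at 0 hours (log2 change 1.70 ± 0.22 SE, limma adjusted p = 0.0045), and 9.45 and 10.6 bp in the wildtype at 3 hours. Its count within 50 bp was 43 and 27 at 3 hours in the H3 shutoff strain, against 110 and 95 at 0 hours. The peak thus lost both sharpness and read centers within 50 bp, with no overlap between the libraries of the times. The +2 nucleosome of the triacylglycerol lipase gene TGL3 (chr13:901035-901191) had an SD of 44.8 and 45.8 bp at 3 hours, against 16.3 and 15.1 bp at 0 hours. These values at 3 hours are above that of an even spread, so that more read centers lay at the edges of the window than at the old dyad. The same was seen at +3 of YML6, a gene of the mitochondrial ribosome (chr13:224952-225106), with 53.0 and 54.0 bp at 3 hours, against 20.1 and 21.3 bp at 0 hours. In bp, TGL3 and YML6 thus widened more than MUD2. Only 9 and 16 read centers were left within 50 bp of that dyad at 3 hours, against 50 and 46 at 0 hours. The other 2 were +3 of RFA1 (chr1:158234-158388), the gene of the largest subunit of the single-strand DNA binding protein RPA, with 40.3 and 44.7 bp at 3 hours, against 14.9 and 15.5 bp at 0 hours, and +1 of the translation initiation factor gene FUN12 (chr1:76369-76523), with 30.8 and 35.3 bp at 3 hours, against 14.3 and 11.1 bp at 0 hours. All 5 widened by a log2 change of 1.37 to 1.70, with an adjusted p of 0.0045 each in limma. All 5 also lost read centers within 50 bp (log2 change -1.94 to -1.14). A wider peak places read centers outside that window, and its part in these losses was not tested.

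A few members kept a narrow peak. The narrowest annotated member at 3 hours in the H3 shutoff strain lay 1484 bp before the nearest listed start, that of YLR257W (chr12:657088-657234). Its SD was 7.81 and 10.9 bp at 3 hours, against 12.2 and 12.1 bp at 0 hours, and 11.6 and 10.2 bp in the wildtype at 3 hours, and its count was 109 and 86, against 116 and 120 at 0 hours. The +1 nucleosome of GAS3 (chr13:696706-696856), a gene of the family of cell wall glucanosyltransferases, stood beside a gap of 297 bp and had 12.2 and 14.7 bp at 3 hours, against 17.4 and 16.5 bp at 0 hours. Its count was 217 and 260 at 3 hours, against 155 and 156 at 0 hours (log2 change 0.61, adjusted p = 0.091 in edgeR). Both were thus no wider at 3 hours than at 0 hours in either culture, though the decrease missed the threshold (limma adjusted p = 0.20 at YLR257W and 0.17 at GAS3). The +1 nucleosome of SSK1 (chr12:163959-164111), a response regulator of the osmosensing pathway, had a like spread at both times and a lower count at 3 hours, with 14.7 and 13.5 bp at 3 hours, against 14.6 and 12.4 bp at 0 hours, and 57 and 49 read centers, against 138 and 96 (log2 change -1.13 ± 0.23 SE, edgeR adjusted p = 3.7e-04). Members near MCD4, a gene of GPI anchor synthesis (chr11:141176-141332), and at +1 of the SNARE gene SEC22 (chr12:680130-680280) had between 11.5 and 16.8 bp at 3 hours, against 11.6 to 17.5 bp at 0 hours.

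The 24 members that met the whole rule again at 3 hours in the H3 shutoff strain had a median SD of 14.6 and 14.3 bp at 3 hours, against 12.9 and 13.1 bp at 0 hours. Of these, 14 lay beside a gap. Their median count was 135.5 and 136.0 at 3 hours, against 134.5 and 119.0 at 0 hours. Since the rule was applied to the 3-hour libraries to find them, these values describe them and support nothing further. The 8 of them in annotated stretches lay near MCD4, SNF7, YLR257W and YLR012C and at +1 of UPS1, SSK1, GAS3 and SLA2.

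The largest fall in count among annotated members was at +2 of YNK1 (chr11:314495-314649), which encodes nucleoside diphosphate kinase. It had 10 and 12 read centers within 50 bp at 3 hours in the H3 shutoff strain, against 71 and 74 at 0 hours, and the wildtype had 70 and 79 at 3 hours (log2 change -2.71 ± 0.32 SE, edgeR adjusted p = 1.4e-07). The groups were far apart. At +1 of HLJ1, a co-chaperone gene of the endoplasmic reticulum (chr13:577630-577780), the count was 19 and 16 at 3 hours, against 82 and 88 at 0 hours. Near FAR3, a gene of pheromone-induced arrest (chr13:378880-379034), it was 20 and 23, against 110 and 98. At +2 of GOR1, the glyoxylate reductase gene (chr14:121985-122137), it was 26 and 12, against 71 and 81, and at +2 of YLL047W (chr12:46786-46938) it was 25 and 11, against 75 and 71. These 4 fell with a log2 change of -2.27 to -2.00 and an adjusted p of 6.6e-06 or less in edgeR. The falls at GOR1 and YLL047W were not called by DESeq2 (adjusted p = 0.068 and 0.079). Those at YNK1, HLJ1 and FAR3 were (adjusted p = 0.0088, 0.020 and 0.014 in DESeq2).

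Rises in count were rare, and 4 of the 5 largest lay upstream of a listed start or outside listed genes. The member 218 bp upstream of SNF7, a gene of the ESCRT-III complex (chr12:194095-194243), had 239 and 301 read centers at 3 hours in the H3 shutoff strain, against 164 and 146 at 0 hours (log2 change 0.79 ± 0.29 SE, edgeR adjusted p = 0.033). Wildtype replicates B and C had 197 and 123 there at 3 hours, so that the H3 shutoff libraries stood above both, and the difference missed the threshold (adjusted p = 0.075 in edgeR). The call between the times was lost with no replicate block (adjusted p = 0.084 in edgeR) and without wildtype replicate C or either H3 shutoff culture (0.058 to 0.46). Near the mismatch repair gene MLH2 (chr12:214878-215016) the count was 78 and 76 at 3 hours, against 37 and 41 at 0 hours, and the wildtype had 63 in both libraries at 3 hours. There the low value was that of the H3 shutoff strain at 0 hours, and the difference from the wildtype at 3 hours missed the threshold (adjusted p = 0.32 in edgeR). The last nucleosome of the F-box gene UFO1 (chr13:94110-94266) had 160 and 259 at 3 hours, against 105 and 110 at 0 hours. The wildtype had 132 and 85 there at 3 hours. Without H3 shutoff replicate 4 the log2 change at UFO1 was 0.61, against 0.93 with both cultures, and its call was lost. Upstream of SGD1 (chr12:802607-802749) the count was 75 and 69, against 39 and 41. The member at chr12:1065019-1065159 lay 4158 bp before the nearest listed start, that of YLR460C, and had 123 and 201, against 86 and 98. The difference from the wildtype at 3 hours missed the threshold at SGD1 (adjusted p = 0.095 in edgeR). Without H3 shutoff replicate 4 the log2 change at YLR460C was 0.52, against 0.79 with both cultures, and its call was lost. The calls at MLH2 and SGD1 were lost without replicate 3 and also without replicate 4. Their log2 changes were then 0.89 and 1.07 at MLH2 and 0.75 and 0.94 at SGD1. DESeq2 did not call the rises at MLH2, SGD1 and YLR460C (adjusted p = 0.10, 0.21 and 0.071). It called those at UFO1 and SNF7 (adjusted p = 0.019 and 0.018).

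**Figure D5:**
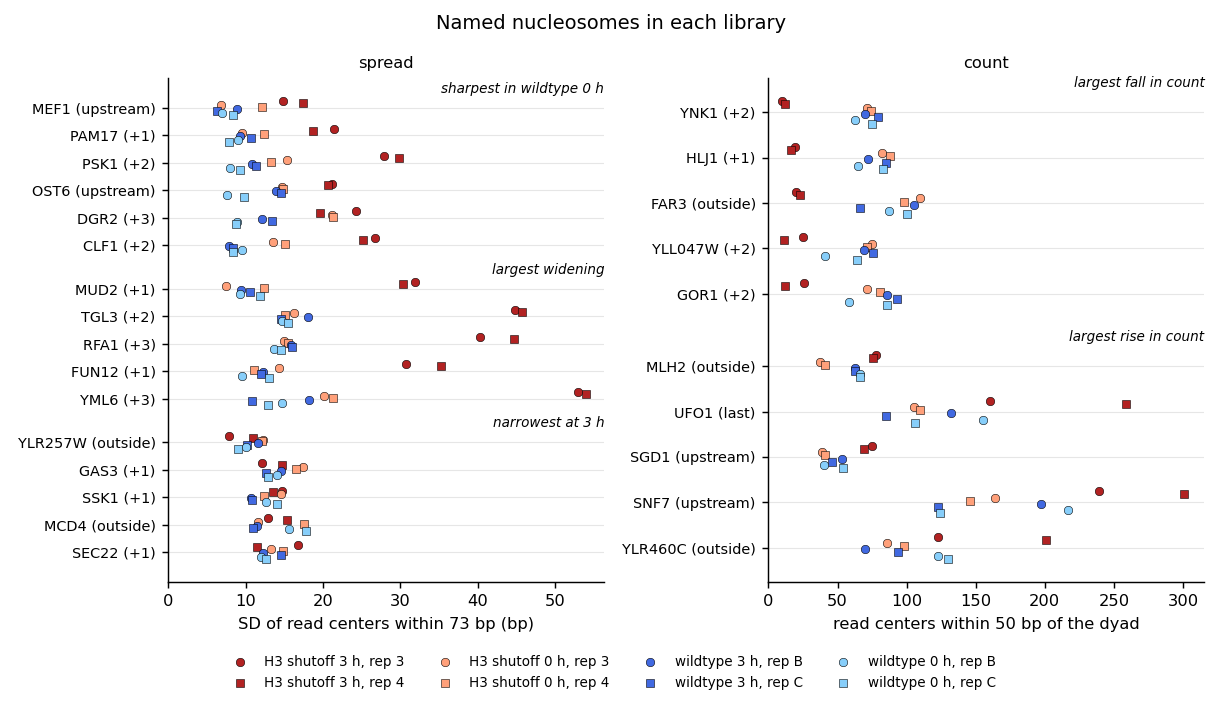
Sharply positioned nucleosomes named in the text (rows, by the gene and the position in it) in each of the 8 libraries (symbols). The left panel gives the SD of the read centers within 73 bp of the dyad in bp and the right panel the number of read centers within 50 bp of it. The H3 shutoff libraries at 3 hours stand apart from the others at MUD2, with an SD of 32.0 and 30.4 bp, and at YNK1, with 10 and 12 read centers, and at SSK1, with an SD of 14.7 and 13.5 bp, they lie beside the H3 shutoff libraries at 0 hours, with 14.6 and 12.4 bp.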

How the data were processed

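MNase-protected fragments of 8 paired-end libraries were used. The authors aligned read pairs to sacCer1 with Bowtie 0.12.6, kept pairs 100 to 200 bp apart and drew 5000001 fragments per library. The deposited calls hold counts of read centers per nucleosome, made by the authors in each library apart without further normalization. A further deposited column, the fraction of a nucleosome's read centers that fall on its dyad base, was computed by the authors and not used here. Read centers, spread and offsets were computed here from the deposited fragments, and 99.9% of the counts within 50 bp were within 2 of the authors' counts. The members and lists were chosen with earlier results of these data known.

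Log2 SD and mean offset were tested with limma 3.58.1 (trend, robust) at nucleosomes with at least 20 read centers within 73 bp in every library, and counts with edgeR 4.0.16 (quasi-likelihood, equal library sizes) at nucleosomes with at least 80 in all. p-values were adjusted by Benjamini-Hochberg over all nucleosomes called in wildtype replicate B at 0 hours, at 0.05. Both tests were also run on simulated data with independent noise, no culture effect and few changed nucleosomes. That setting is simpler than these data, so it does not show how the tests perform here. Each test was fitted on all 8 libraries, so the wildtype libraries of 0 hours that set the rule also entered its error estimate. Culture was a block in the comparisons of times, since each culture was sampled at both. Deviations of the 2 cultures of a strain at 3 hours correlated with those at 0 hours over nucleosomes with r = 0.378 for H3 shutoff and r = -0.081 for wildtype cultures, which a letter tells apart. Each group has 2 cultures, which limits the precision. Python 3.11.15 and R 4.3.3 were used.

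Listed transcripts served as annotation on chromosomes 1, 11, 12, 13 and 14, and 1462 of 1614 matched a RefSeq symbol. Chromosome 10 was left out because its listed starts were offset, and the expression comparisons of the authors in that list were not used. The build was not checked against a genome, and motifs were not analysed here. Named nucleosomes are annotated members: the 6 sharpest by the authors' SD, the 5 of largest called widening, the 5 narrowest at 3 hours in the H3 shutoff strain, the 5 of largest called fall and rise in count, and those next to each limit. The retained members were named after their values were seen.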

Additional observations from a re-analysis of the deposited data

How the results depend on the processing

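Each comparison rests on 2 cultures per group. With no replicate block, 2956 members were wider, 1612 had shifted and 1973 had a lower count at 3 hours than at 0 hours in the H3 shutoff strain, within 1.5 times the paired values. Leaving out 1 culture at a time gave 0 to 3184 members wider (0 without either H3 shutoff culture, with 2300 and 2563 at an unadjusted p under 0.05), 0 to 1226 shifted (439 without H3 shutoff replicate 3 and 0 without replicate 4, with 1380 at an unadjusted p under 0.05) and 500 to 2462 lower. Against the wildtype at 3 hours it gave 3411 to 3679 wider and 1338 to 2182 lower, the lowest count without H3 shutoff replicate 4.

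Fragments of 140 to 160 bp gave 1123 wider (46.6%, against 16.8% of all nucleosomes) and 560 shifted between the times, and 2013 wider between the strains, at 2411 members that still had the minimum. The window of 50 bp gave 1474 wider between the times. TMM gave 876 and 966 members lower against 0 hours and against the wildtype, DESeq2 gave 41 and 441, and the window of 73 bp, added after the data were examined, gave 1392 and 1530. The cause of these differences was not tested. The rule gave 1964 members with a limit of 16 bp and 7105 with 20 bp.

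The median SD within 50 bp was 21.4 bp in the H3 shutoff strain at 3 hours, against 16.2 bp at 0 hours, and 14.03 bp in the wildtype at 3 hours, against 13.85 bp at 0 hours. In fragments of 140 to 160 bp it was 29.5 bp, against 18.3 bp, and 14.2 bp, against 13.4 bp. The authors' SD of the nearest call within 20 bp was 31.9 bp, against 20.8 bp, and 16.1 bp in the wildtype at 3 hours. No named nucleosome changed direction past the threshold under these alternatives. Of their spread and count values, 13 lost their call without H3 shutoff replicate 3 and 17 without replicate 4.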
